A study of Mus musculus with 8 samples.

Results

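The genes described here are those of the mouse proteasome, its regulators and its assembly factors. They were chosen by symbol, as Psm followed by a letter from a to g and a digit, and they make up 50 of the 19938 genes measured in these hearts. By name and known role they fall into 8 genes of the 20S alpha class, 8 of the 20S beta class, 3 immunoproteasome subunits, 6 ATPases of the 19S cap, 14 non-ATPase genes of the 19S cap, 5 activators and inhibitors, and 4 assembly chaperones (Psmg1 to Psmg4). The other 2, Psmc3ip and Psme3ip1, match the symbol rule but encode no proteasome subunit. Each gene was read from 1 probe set, that of the highest mean level. A probe set shared by Psme2b and Psme2 was set aside, so Psme2b has no value of its own.

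RNA came from hearts of MAFbx knockout mice (KO) and of wild-type mice (WT). MAFbx, also called atrogin-1, is a muscle ubiquitin ligase encoded by Fbxo32. Hearts were taken 1 day after a myocardial infarction (MI) made by permanently tying off the left coronary artery, or after a sham operation, for which the labels give no time. The groups were KO MI, WT MI, KO sham and WT sham, with 2 Affymetrix Mouse Gene ST arrays in each. The labels give neither age, sex, strain background nor the part of Fbxo32 that was deleted, and it is not stated if each array stands for its own animal. The p-values therefore reflect the scatter of these samples only, and that scatter may be technical. Fbxo32 read 5.14 and 5.46 on the log2 scale in the KO MI arrays, 8.35 and 8.21 in WT MI, 4.68 and 5.17 in KO sham and 8.76 and 8.79 in WT sham, so every KO array was low for the gene its label names.

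The proteasome degrades proteins that carry ubiquitin chains. Its barrel-shaped 20S core is built from rings of alpha subunits, which form the gate, and rings of beta subunits, of which Psmb5, Psmb6 and Psmb7 carry the protease sites. The 19S cap recognises the chain, removes it and feeds the protein into the core with a ring of ATPases. Leukocytes, and other cells exposed to interferon gamma, replace the catalytic subunits by Psmb8, Psmb9 and Psmb10 to form the immunoproteasome, which shapes peptides for antigen presentation. In mammalian cells the transcription factor Nfe2l1 raises proteasome genes when proteasome activity falls, and Nfe2l2 raises some of them under oxidative stress, both through antioxidant response elements.

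Start regions of 7 members are printed below as examples. Psmd11 and Psma5 had the largest rises, Psme4 fell, and Psmb8 and Psmb9 are the immunoproteasome neighbours. Psmb5 and Psmd12 are 2 of the 7 members that passed upward in KO hearts and not in WT hearts. Both carry the antioxidant response element in this region, as do Psmb6 and Psmc6 of the 7, while Psmc2, Psmd2 and Psmd13 do not. Each printed region runs 5′ to 3′ on the gene's own strand from 250 bases before to 50 bases after the annotated start, as given by RefSeq for GRCm38.p6. Capitals mark a match to the antioxidant response element (TGACNNNGC), the interferon-stimulated response element (GAAA, any 2 bases, GAAA) or the gamma-activated site (TTCNNNGAA), each searched on both strands.
Psmd11, chr11:80428365-80428664, + strand, no match: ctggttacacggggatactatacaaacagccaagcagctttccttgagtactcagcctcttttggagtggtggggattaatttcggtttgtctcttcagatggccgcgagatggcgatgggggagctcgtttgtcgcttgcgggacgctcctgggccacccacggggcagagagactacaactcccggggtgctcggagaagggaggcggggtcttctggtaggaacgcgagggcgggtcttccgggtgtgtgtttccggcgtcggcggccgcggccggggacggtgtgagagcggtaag
Psma5, chr3:108256676-108256975, + strand, no match: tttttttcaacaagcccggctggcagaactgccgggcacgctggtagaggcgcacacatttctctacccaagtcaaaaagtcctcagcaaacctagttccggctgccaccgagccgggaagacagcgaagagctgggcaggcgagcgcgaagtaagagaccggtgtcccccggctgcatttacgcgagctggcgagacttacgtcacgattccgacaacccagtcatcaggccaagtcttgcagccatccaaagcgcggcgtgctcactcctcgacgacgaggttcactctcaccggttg
Psmb5, chr14:54617946-54618245, - strand, antioxidant response element: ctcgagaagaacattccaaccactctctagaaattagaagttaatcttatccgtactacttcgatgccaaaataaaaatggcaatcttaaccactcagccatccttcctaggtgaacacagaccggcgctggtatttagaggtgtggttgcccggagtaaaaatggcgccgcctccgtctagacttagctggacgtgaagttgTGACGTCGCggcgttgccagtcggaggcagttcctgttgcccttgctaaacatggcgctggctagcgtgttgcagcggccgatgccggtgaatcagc
Psmd12, chr11:107479278-107479577, + strand, antioxidant response element on the opposite strand: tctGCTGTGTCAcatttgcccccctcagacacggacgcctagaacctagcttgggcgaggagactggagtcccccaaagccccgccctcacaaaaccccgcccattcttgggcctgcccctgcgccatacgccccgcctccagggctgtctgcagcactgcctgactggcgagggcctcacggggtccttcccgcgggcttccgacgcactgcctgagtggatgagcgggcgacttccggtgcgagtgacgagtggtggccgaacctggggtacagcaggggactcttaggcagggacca
Psme4, chr11:30771525-30771824, + strand, antioxidant response element on the opposite strand: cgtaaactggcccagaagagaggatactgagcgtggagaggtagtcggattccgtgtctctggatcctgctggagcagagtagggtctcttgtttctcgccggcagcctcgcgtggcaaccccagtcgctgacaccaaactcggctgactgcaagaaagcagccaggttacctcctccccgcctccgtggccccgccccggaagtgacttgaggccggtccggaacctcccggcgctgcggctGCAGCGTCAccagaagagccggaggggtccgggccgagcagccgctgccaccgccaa
Psmb8, chr17:34197945-34198244, + strand, gamma-activated site: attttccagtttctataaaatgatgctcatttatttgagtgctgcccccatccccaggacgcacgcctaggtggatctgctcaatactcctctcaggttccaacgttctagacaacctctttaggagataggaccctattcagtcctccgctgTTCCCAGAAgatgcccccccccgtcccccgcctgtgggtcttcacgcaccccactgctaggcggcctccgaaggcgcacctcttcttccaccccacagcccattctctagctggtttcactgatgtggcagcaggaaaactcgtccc
Psmb9, chr17:34187281-34187580, - strand, no match: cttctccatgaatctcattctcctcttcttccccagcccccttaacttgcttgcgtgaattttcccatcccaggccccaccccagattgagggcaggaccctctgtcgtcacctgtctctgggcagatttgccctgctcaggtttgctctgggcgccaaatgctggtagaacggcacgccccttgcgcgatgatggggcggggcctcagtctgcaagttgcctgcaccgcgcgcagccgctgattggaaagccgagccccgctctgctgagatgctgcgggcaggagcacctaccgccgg
The match begins 47 bases before the start in Psmb5, 247 in Psmd12, 7 in Psme4 and 97 in Psmb8. The window of Psmb9 also covers the start of the peptide transporter gene Tap1, which runs the other way from 226 bases off, and the start of Psmb8 lies 10865 bases from that of Psmb9.

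One array has to be named before the results. KO sham replicate 1 was the lowest of the 8 arrays for 35 of the 50 members (70% of members, against 15.8% of all genes). It read below KO sham replicate 2 for 41 of 50 members, by a median of 0.26 on the log2 scale. It also had the highest median over all probe sets, 5.25, where the 8 arrays ran from 5.004 to 5.253. Its median over the genes tested did not stand out, at 5.773, where the 8 arrays ran from 5.749 to 5.808. On the second principal component, which held 8.56% of the variance, it lay at -21.2 and KO sham replicate 2 at 15.3. WT MI replicate 2 stood apart on that component too, at -20.2 against 0.63 for WT MI replicate 1. KO calls that ended without KO sham replicate 1 are given with and without it. Other KO differences are in part given with it alone, and those may rest on it too. The median KO difference of the members after MI was 0.37 with all arrays and 0.30 without it.

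Infarction was followed by a rise of 14 proteasome genes in both genotypes, of 7 more in KO and of 1 more in WT, and the activators were not among them. The other members did not pass upward. In KO hearts 21 of 50 members rose 1 day after MI, where 10.5% of all genes rose, and 1 fell (10.3% of all genes), at a limma adjusted p under 0.05. In WT hearts 15 of 50 rose, where 12.3% of all genes rose, and 2 fell (15.8% of all genes). These counts depend on the normalization. After cyclic loess 28 members rose in each genotype, where 2376 of the 19938 genes rose in KO and 2854 in WT. The difference was above 0 for 44 members in KO (51.5% of all genes) and for 40 in WT (54.7% of all genes). The median log2 difference of the members was 0.37 in KO and 0.27 in WT, and that of all genes was 0.01 in KO and 0.04 in WT. Most changes were under 2-fold: the differences ran from -0.59 to 1.17 in KO and from -0.53 to 1.27 in WT.

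The 14 members that rose in both genotypes were 66.7% of the rises in KO and 93.3% of those in WT, and 28% of all members, where 8% of all genes rose in both. Psme4 fell in both. The KO MI arrays lay above the KO sham arrays without overlap for 39 of 50 members (28.1% of all genes), and the WT MI arrays above the WT sham arrays for 33 (35.0% of all genes). They lay below without overlap for 4 in KO (27.5% of all genes) and 7 in WT (31.6% of all genes). For 2 of these, Psmd9 and Psmg1, the directions in KO and WT were opposite, as for 2.85% of all genes. Without KO sham replicate 1, 11 members rose and 2 fell in KO, and without KO sham replicate 2, 29 rose and 1 fell. Without KO MI replicate 1 and KO MI replicate 2 the rises in KO numbered 10 and 12 and no member fell. In WT, 7 rose without either WT sham array or without WT MI replicate 1, and 9 without WT MI replicate 2. With KO sham replicate 1 and WT MI replicate 2 both left out, 13 rose and 2 fell in KO, and 15 rose and 2 fell in WT. A 1.5-fold minimum left 15 of the 22 KO calls and 7 of the 17 WT calls. It ended the KO calls of Psmb3, Psmb5, Psmb6, Psmc6, Psmd8, Psmd12 and Psmd13. In WT it ended those of Psma4, Psma6, Psma7, Psmb3, Psmb8, Psmc1, Psmc3, Psmd8, Psmd10 and Psme4. Of the rises, 10 in KO and 6 in WT passed under each of the 20 alternatives run: Psma3, Psma5, Psmc4, Psmd3, Psmd4 and Psmd11 in both, and Psma4, Psma7, Psmc1 and Psmc3 in KO.

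**Figure D1:**
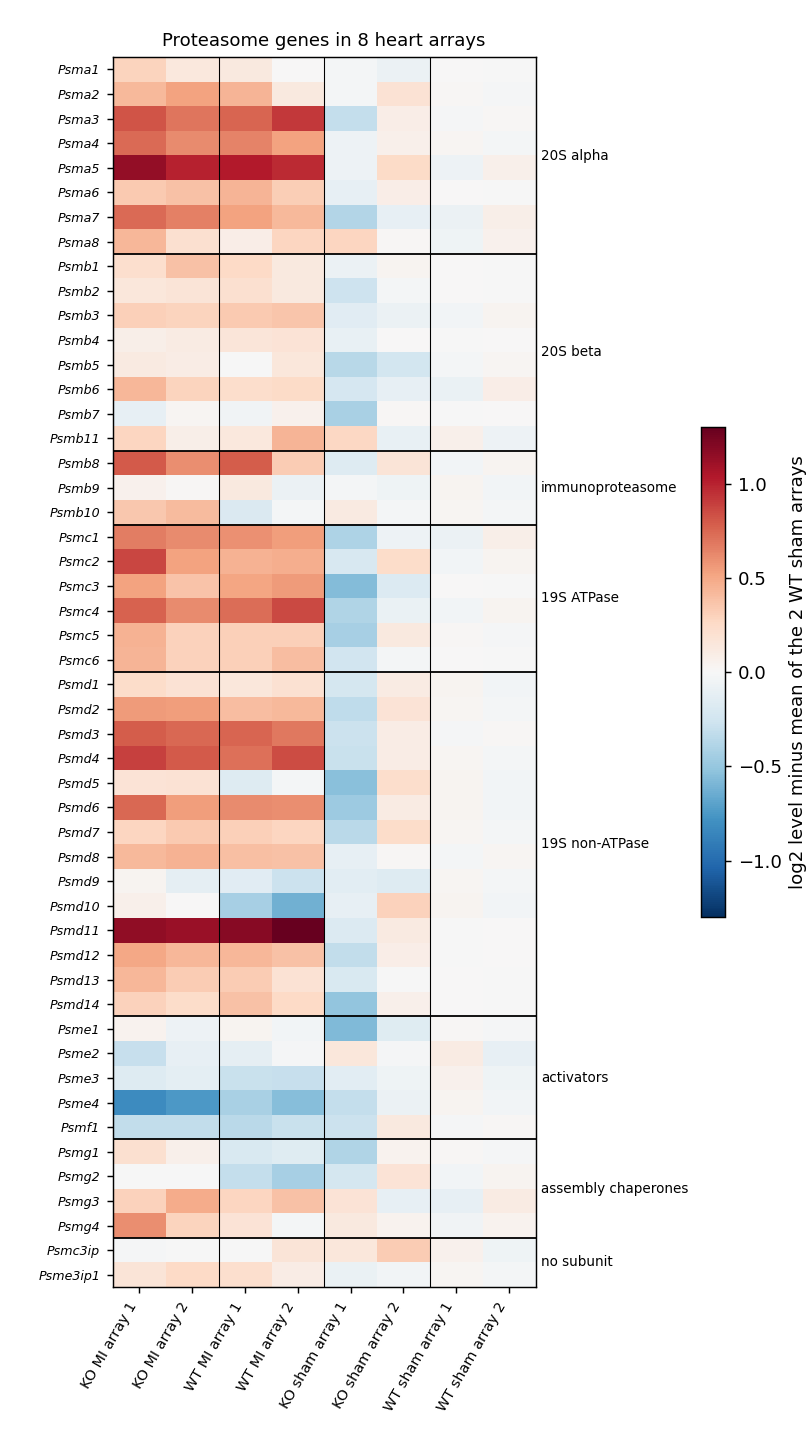
Log2 level of each of the 50 genes in each of the 8 arrays (columns), minus the mean of the 2 WT sham arrays, with rows grouped by class. Red cells dominate the 4 MI columns for the alpha, ATPase and non-ATPase classes, the Psme4 row is blue there, and KO sham array 1 is blue for most rows.

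The alpha subunits, which form the outer rings and the gate of the 20S core, were led by Psma5, Psma7 and Psma3. In KO hearts 4 of 8 rose after MI (median log2 difference 0.53), where 10.5% of all genes rose. In WT hearts 5 of 8 rose (median 0.43), where 12.3% of all genes rose. Psma5 read 8.21 and 8.06 in KO MI, 8.10 and 8.03 in WT MI, 6.999 and 7.32 in KO sham, and 7.001 and 7.13 in WT sham. All 4 MI arrays lay above all 4 sham arrays. It rose 1.97-fold in KO (log2 difference 0.98, SE 0.14, adjusted p = 0.00122) and 2.001-fold in WT (1.0006, SE 0.14, adjusted p = 0.000641).

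Psma3 read 10.95 and 10.82 in KO MI, 10.89 and 11.05 in WT MI, 9.82 and 10.21 in KO sham, and 10.12 and 10.15 in WT sham, again with no overlap between MI and sham. It rose by 0.87 in KO (SE 0.15, adjusted p = 0.00319) and by 0.84 in WT (SE 0.15, adjusted p = 0.00254). Psma7 read 8.58 and 8.49 in KO MI, 8.36 and 8.26 in WT MI, 7.46 and 7.73 in KO sham, and 7.77 and 7.91 in WT sham, so the KO MI arrays were the highest and the KO sham arrays the lowest. It rose by 0.94 in KO (SE 0.14, adjusted p = 0.00121) and by 0.47 in WT (SE 0.14, adjusted p = 0.0282). The rise in WT did not pass when any single WT array was left out (adjusted p = 0.183 without WT sham replicate 1, 0.0764 without WT sham replicate 2, 0.109 without WT MI replicate 1 and 0.0668 without WT MI replicate 2).

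Psma4 rose by 0.68 in KO and 0.58 in WT, although the WT rise did not pass without WT sham replicate 2 (adjusted p = 0.0546). Psma6 passed in WT (0.38, adjusted p = 0.0431) and not in KO (0.37, adjusted p = 0.0621), at nearly the same size. The WT call for Psma6 ended without any 1 of the WT or KO MI arrays, with adjusted p between 0.0691 and 0.182, and also after median centring (0.0638), with the replicate block (0.0634) and at a 1.5-fold minimum. Psma1 and Psma2 did not pass in either genotype, with differences of 0.26 and 0.39 in KO and 0.06 and 0.28 in WT. Psma8, the alpha subunit of testis, read between 3.39 and 3.88 in every array, near the low end of these arrays, where the 10th percentile of gene means was 3.045.

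Of the beta subunits outside the immunoproteasome, 3 of 8 rose in KO hearts (Psmb3, Psmb5 and Psmb6, median of the class 0.31, where 10.5% of all genes rose). In WT hearts 1 of 8 rose (Psmb3, median 0.18, where 12.3% of all genes rose). Psmb5 carries the chymotrypsin-like site. It read 11.46 and 11.44 in KO MI, 11.34 and 11.49 in WT MI, 10.99 and 11.10 in KO sham, and 11.31 and 11.37 in WT sham. The 2 KO sham arrays were the lowest of the 8, and the MI arrays of the genotypes overlapped. It rose by 0.40 in KO (SE 0.12, adjusted p = 0.0418), against a difference of 0.07 in WT (SE 0.12, adjusted p = 0.711). Between sham groups Psmb5 lay 0.30 lower in KO (SE 0.12, unadjusted p = 0.0340, adjusted p = 0.935).

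Psmb6, which carries the caspase-like site, read 9.48 and 9.34 in KO MI, 9.28 and 9.30 in WT MI, 8.83 and 8.95 in KO sham, and 8.96 and 9.14 in WT sham. MI arrays lay above sham arrays in each genotype. It rose by 0.52 in KO (SE 0.13, adjusted p = 0.0168), and the difference of 0.24 in WT did not pass (adjusted p = 0.201). Psmb7, which carries the trypsin-like site, read 10.38 and 10.52 in KO MI, 10.45 and 10.55 in WT MI, 10.07 and 10.50 in KO sham, and 10.48 and 10.50 in WT sham. KO sham replicate 1 was the lowest and the MI and sham arrays otherwise overlapped. Psmb7 passed in neither genotype (0.17 in KO, adjusted p = 0.532, and 0.01 in WT, adjusted p = 0.985). Without KO sham replicate 1 its KO difference was -0.05. Psmb3 read 11.38 and 11.37 in KO MI, 11.41 and 11.43 in WT MI, 10.92 and 10.99 in KO sham, and 11.03 and 11.11 in WT sham, and rose by 0.42 in KO (adjusted p = 0.0292) and by 0.35 in WT (adjusted p = 0.0480).

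These calls of the beta class were close to the threshold. Without KO sham replicate 1 the adjusted p in KO was 0.116 for Psmb5, 0.0585 for Psmb6 and 0.0750 for Psmb3. Without a KO MI array it was 0.166 or 0.154 for Psmb5, 0.121 or 0.0524 for Psmb6, and 0.133 or 0.123 for Psmb3. The KO calls of Psmb5 and Psmb3 also ended without a WT sham array (0.0813 for Psmb5 and 0.0615 for Psmb3), and the WT call of Psmb3 ended without any 1 of the WT or KO MI arrays (0.0763 to 0.246). The KO call of Psmb5 further ended with array weights (0.0685), the KO groups alone (0.0979), median centring (0.0554) and the replicate block (0.0553), and that of Psmb3 with array weights (0.0528) and the KO groups alone (0.0836). The WT call of Psmb3 ended with the mean of its probe sets (0.0866), a robust prior, the WT groups alone (0.0556), median centring (0.0701) and the replicate block (0.0684). All 4 calls of Psmb3, Psmb5 and Psmb6 ended at a 1.5-fold minimum. Psmb1, Psmb2 and Psmb4 did not pass in either genotype, at 0.32, 0.31 and 0.14 in KO and 0.19, 0.17 and 0.17 in WT. Psmb11, the beta subunit of the thymus, read between 3.91 and 4.45, near the low end of these arrays.

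Of the immunoproteasome subunits Psmb8 was higher after infarction, Psmb9 lay flat, and Psmb10 was highest in infarcted KO hearts. Psmb8, which replaces Psmb5, read 6.84 and 6.64 in KO MI, 6.82 and 6.37 in WT MI, 5.87 and 6.21 in KO sham, and 6.004 and 6.07 in WT sham. All 4 MI arrays lay above all 4 sham arrays. Psmb8 rose 1.62-fold in KO (log2 difference 0.70, SE 0.18, adjusted p = 0.0206) and 1.47-fold in WT (0.56, SE 0.18, adjusted p = 0.0408). Both calls depended on single arrays, and that in WT also ended with the WT groups fitted alone (adjusted p = 0.0513), after median centring (0.0554), with the replicate block (0.0575) and at a 1.5-fold minimum. In KO the adjusted p was 0.105 without KO sham replicate 1, 0.137 without KO MI replicate 1 and 0.0600 without KO MI replicate 2, and in WT it reached 0.169, 0.125 and 0.222 without WT sham replicate 1, WT sham replicate 2 and WT MI replicate 1, and 0.0586 without either KO MI array.

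Psmb9, which replaces Psmb6, read 7.11 and 7.07 in KO MI, 7.18 and 6.98 in WT MI, 7.02 and 6.999 in KO sham, and 7.09 and 7.02 in WT sham. The WT groups overlapped and the KO groups lay close together. Neither difference passed (0.08 in KO, 95% interval -0.20 to 0.35, and 0.03 in WT, 95% interval -0.25 to 0.30). Psmb10, which replaces Psmb7, read 8.25 and 8.32 in KO MI, 7.71 and 7.88 in WT MI, 8.02 and 7.88 in KO sham, and 7.93 and 7.87 in WT sham. Both KO MI arrays lay above the other 6. The difference was 0.34 in KO (SE 0.13, adjusted p = 0.0911) and -0.11 in WT (SE 0.13, adjusted p = 0.570), and neither passed.

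Leukocyte markers rose after infarction too. All 8 of 8 did so in each genotype, where 10.5% of all genes rose in KO and 12.3% in WT. Their median rise was 2.04 in KO and 2.39 in WT, against 0.70 and 0.56 for Psmb8. The mean level of the markers relative to WT sham was 2.08 and 2.10 in the KO MI arrays, 2.48 and 2.21 in WT MI, -0.14 and 0.15 in KO sham, and 0.0028 and -0.0028 in WT sham. The 4 with the smallest p were Tyrobp, Cd53, Itgb2 and Coro1a. Tyrobp, a signalling adaptor of myeloid cells, rose by 1.88 in KO and 2.63 in WT. Between infarcted hearts all 8 leukocyte markers lay lower in KO (median -0.22), while Psmb8 lay 0.14 higher, and none of these differences passed. Of 9 lymphocyte markers none passed the limma test in KO (the nearest was Cd4 at -0.42, unadjusted p = 0.0179, adjusted p = 0.0744). In WT 1 of 9 rose, Cd8a (0.43, adjusted p = 0.0432), near the 12.3% of all genes that rose. The median differences of the lymphocyte markers were 0.10 in KO and 0.18 in WT. Of 10 cardiomyocyte markers, Ryr2 fell in KO, near the 10.3% of all genes that fell. Ryr2, Pln and Tnni3 fell in WT, where 15.8% of all genes fell. The other cardiomyocyte markers did not pass. In KO 4 of the 10 lay above 0 and in WT 3, with medians of -0.05 and -0.12. In these bulk samples a change in the number of cells of a type and a change in RNA per cell cannot be told apart, and the part of leukocytes in the levels of the proteasome genes was not tested.

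**Figure D2:**
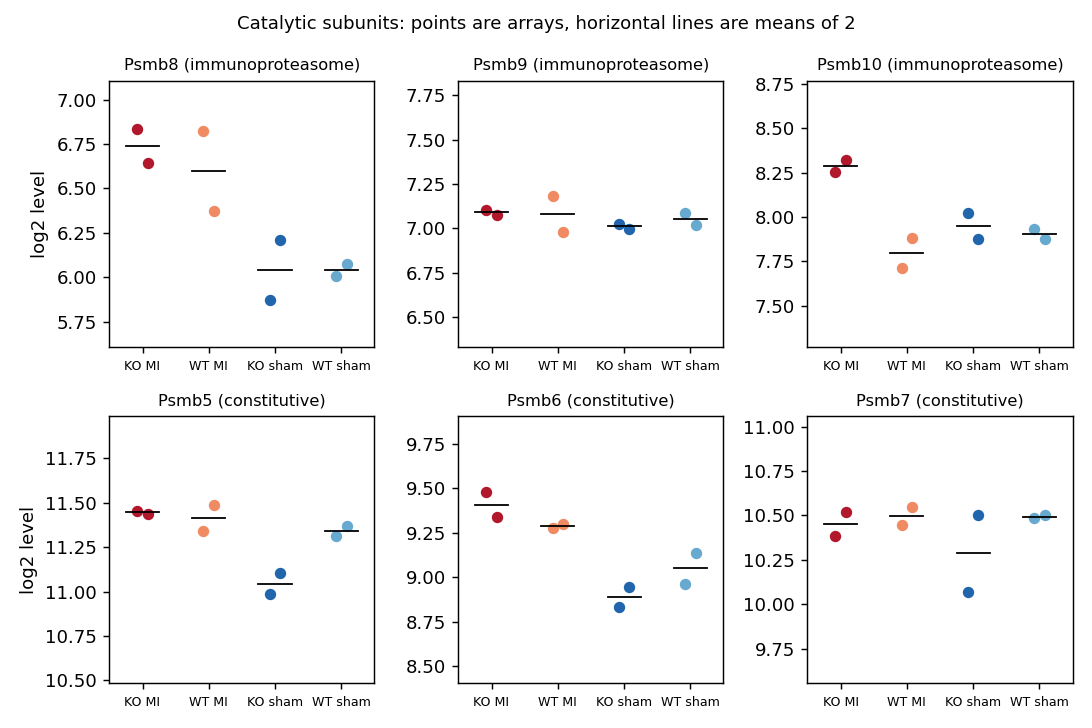
Log2 level of the 3 immunoproteasome subunits (top) and of the constitutive subunit each replaces (bottom), with 1 point per array, a line at the mean of 2, and all axes spanning 1.5 log2 units. Psmb8 separates MI from sham arrays, Psmb9 and Psmb7 do not, Psmb10 is highest in KO MI, and Psmb5 is lowest in KO sham.

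The 19S ATPases, which unfold proteins and drive them into the core, gave the highest class median in both genotypes. In KO hearts 5 of 6 rose (median 0.75), where 10.5% of all genes rose. In WT hearts 3 of 6 rose (median 0.50), where 12.3% of all genes rose. Psmc4 read 9.22 and 9.06 in KO MI, 9.18 and 9.31 in WT MI, 8.06 and 8.36 in KO sham, and 8.42 and 8.48 in WT sham. All 4 MI arrays lay above all 4 sham arrays, and Psmc4 rose 1.90-fold in KO (log2 difference 0.93, SE 0.14, adjusted p = 0.00155) and 1.74-fold in WT (0.80, SE 0.14, adjusted p = 0.00231).

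Psmc1 read 9.64 and 9.59 in KO MI, 9.56 and 9.52 in WT MI, 8.57 and 8.90 in KO sham, and 8.89 and 9.05 in WT sham, and rose by 0.88 in KO (adjusted p = 0.00208) and 0.57 in WT (adjusted p = 0.0137). Psmc3 read 9.13 and 8.98 in KO MI, 9.125 and 9.16 in WT MI, 8.05 and 8.43 in KO sham, and 8.61 and 8.61 in WT sham, and rose by 0.82 in KO (adjusted p = 0.00361) and 0.53 in WT (adjusted p = 0.0212). For both genes the MI arrays of the genotypes were close and KO sham replicate 1 was the lowest array. The WT call of Psmc1 ended when WT sham replicate 1 was left out (adjusted p = 0.113) and when WT MI replicate 1 was (0.0584), and that of Psmc3 without any single WT array (0.0623 to 0.103).

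Psmc2 and Psmc6 rose in KO by 0.68 and 0.51, and neither passed in WT (0.46 and 0.36, adjusted p = 0.0718 and 0.0686). In WT, Psmc2 passed under 5 of 20 alternatives (lowest adjusted p = 0.0110) and Psmc6 under 6 (0.00678), among them cyclic loess, array weights and leaving out either KO sham array. The KO calls ended without KO sham replicate 1 (adjusted p = 0.0920 for Psmc2 and 0.0793 for Psmc6) without KO MI replicate 1 (0.152 and 0.139) and with the KO groups fitted alone (0.0505 and 0.0591), and that of Psmc6 also without KO MI replicate 2 (0.0593). Psmc5 passed in neither genotype (0.53 in KO, adjusted p = 0.0601, and 0.31 in WT, adjusted p = 0.229). Without KO sham replicate 1 its KO difference was 0.25.

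Among the 14 non-ATPase genes of the 19S cap, 8 rose in KO (median 0.49), where 10.5% of all genes rose. In WT 5 rose and 1 fell (median 0.36), where 12.3% of all genes rose and 15.8% fell. Psmd11, a lid subunit that holds the cap on the core, had the largest log2 difference of the 50 genes in both genotypes. It read 10.01 and 9.98 in KO MI, 10.04 and 10.22 in WT MI, 8.68 and 8.97 in KO sham, and 8.85 and 8.87 in WT sham. All 4 MI arrays lay above all 4 sham arrays. Psmd11 rose 2.25-fold in KO (log2 difference 1.17, SE 0.14, adjusted p = 0.000373) and 2.41-fold in WT (1.27, SE 0.14, adjusted p = 0.000140).

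Psmd4, a receptor for ubiquitin chains, read 8.88 and 8.79 in KO MI, 8.72 and 8.85 in WT MI, 7.71 and 8.09 in KO sham, and 8.02 and 7.98 in WT sham. It rose by 0.94 in KO (adjusted p = 0.00185) and 0.79 in WT (adjusted p = 0.00313). Psmd3, a lid subunit, read 8.91 and 8.87 in KO MI, 8.87 and 8.80 in WT MI, 7.84 and 8.22 in KO sham, and 8.10 and 8.14 in WT sham, and rose by 0.86 in KO (adjusted p = 0.00249) and 0.72 in WT (adjusted p = 0.00451). For Psmd4 and Psmd3 the 4 MI arrays lay above the 4 sham arrays.

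Psmd6 and Psmd8, further lid subunits, rose in both genotypes, by 0.83 and 0.48 in KO and by 0.61 and 0.39 in WT. Their WT calls ended without any single WT array (adjusted p = 0.0977 to 0.143 for Psmd6 and 0.0916 to 0.174 for Psmd8), and that of Psmd8 also without a KO MI array (0.0549). In KO the call of Psmd6 ended without KO MI replicate 1 (0.0842), and that of Psmd8 without KO sham replicate 1 (0.0526), KO MI replicate 1 (0.0751) or KO MI replicate 2 (0.100), or with the KO groups fitted alone (0.0556).

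Psmd2, the large scaffold subunit of the base, and the lid subunits Psmd12 and Psmd13 passed in KO at 0.63, 0.58 and 0.48. In WT their differences of 0.41, 0.40 and 0.26 did not pass (adjusted p = 0.0896, 0.0678 and 0.163). Psmd2 passed in WT under 6 of 20 alternatives (lowest adjusted p = 0.0102), Psmd12 under 8 (0.00574) and Psmd13 under 1, cyclic loess (0.0167). Without KO sham replicate 1 the KO differences were 0.37, 0.38 and 0.38, and none of these passed (adjusted p = 0.0763, 0.0731 and 0.0882). Nor did they without KO MI replicate 1 (0.106, 0.110 and 0.144) or KO MI replicate 2 (0.103, 0.0801 and 0.0802), or with the KO groups fitted alone (0.0572, 0.0544 and 0.0646), and Psmd13 also missed without either WT sham array (0.0501). Psmd14, the deubiquitinase of the lid, and Psmd1 and Psmd7 did not pass, at 0.49, 0.27 and 0.37 in KO and 0.32, 0.18 and 0.29 in WT. Without KO sham replicate 1 their KO differences were 0.21, 0.10 and 0.08.

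Psmd5, Psmd9 and Psmd10 carry names of the cap but are chaperones that assemble its base. No test was run of their difference from the other 11, and in KO Psmd5 (0.34) lay above Psmd1 (0.27). Without KO sham replicate 1 that order turned round, with -0.045 for Psmd5 and 0.10 for Psmd1. Their mean level relative to WT sham was 0.09 and 0.02 in the KO MI arrays, -0.25 and -0.31 in WT MI, -0.26 and 0.12 in KO sham, and 0.03 and -0.03 in WT sham. The other 11 had means of 0.57 and 0.52 in KO MI, 0.51 and 0.51 in WT MI, -0.30 and 0.10 in KO sham, and 0.01 and -0.01 in WT sham. Psmd10, also called gankyrin and singled out after its values were seen, read 7.99 and 7.93 in KO MI, 7.49 and 7.30 in WT MI, 7.82 and 8.22 in KO sham, and 7.96 and 7.89 in WT sham. It fell by 0.53 in WT (SE 0.15, adjusted p = 0.0279), and the difference of -0.06 in KO did not pass (adjusted p = 0.843). Without KO sham replicate 1 the KO difference of Psmd10 was -0.26. The fall in WT did not pass after cyclic loess (-0.38, adjusted p = 0.0504) or without WT sham replicate 1 (0.144), WT sham replicate 2 (0.0970) or WT MI replicate 2 (0.155).

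**Figure D3:**
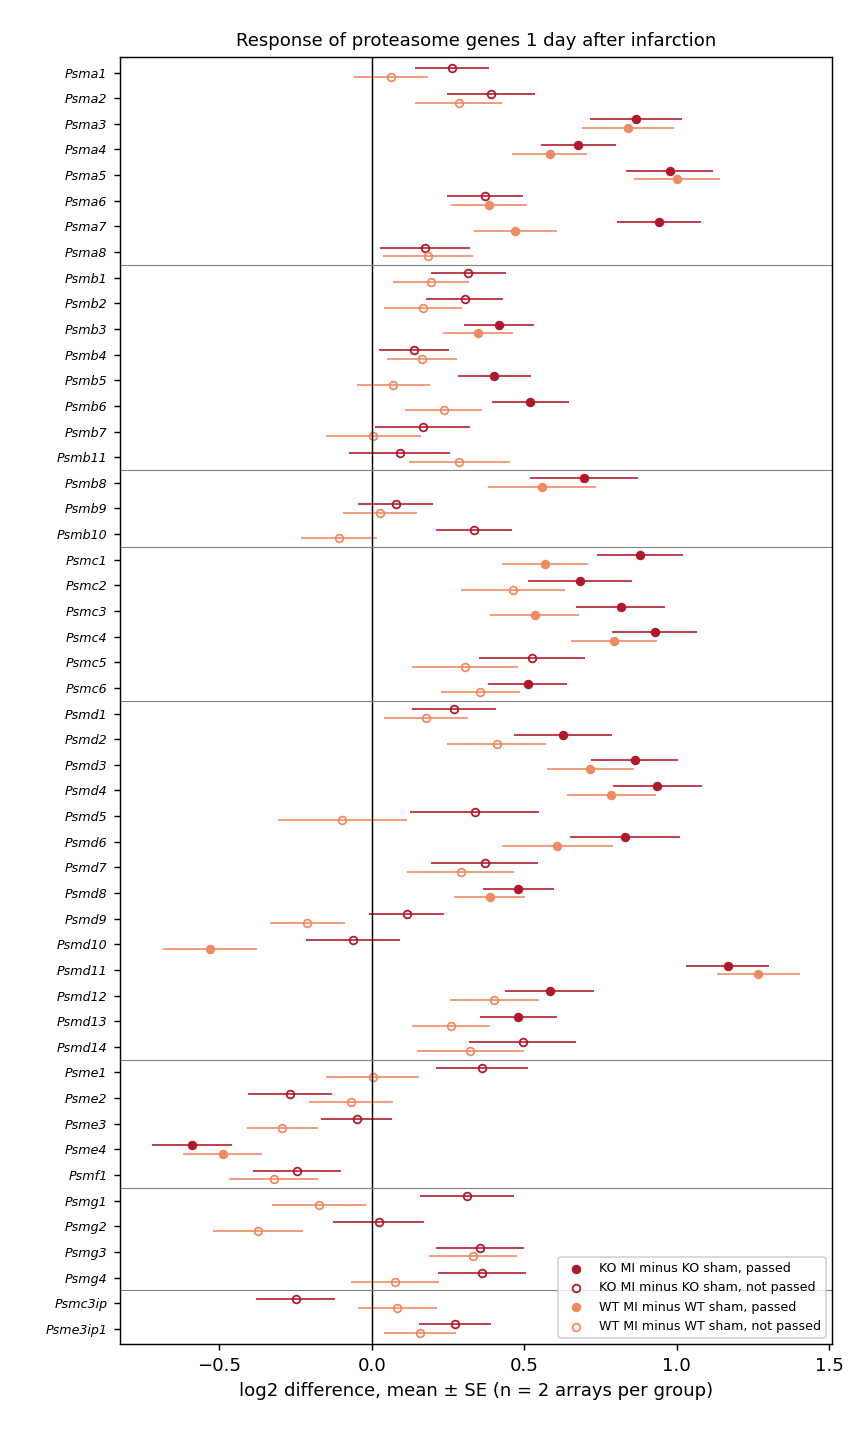
Log2 difference of MI minus sham for each gene, as the fitted mean ± SE with 2 arrays per group, KO above WT within each row and filled where the adjusted p was under 0.05. Psmd11 and Psma5 lie farthest to the right in both genotypes and Psme4 farthest to the left in KO.

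No activator rose at an adjusted p under 0.05 in limma, with Psme1 in KO the nearest (unadjusted p = 0.0393). In each genotype 1 of 5 fell (class medians -0.25 in KO and -0.29 in WT). Over all genes 10.5% rose and 10.3% fell in KO, and 12.3% rose and 15.8% fell in WT. Psme4 encodes PA200, a nuclear activator known from testis for the degradation of acetylated histones. It read 10.38 and 10.45 in KO MI, 10.77 and 10.64 in WT MI, 10.89 and 11.12 in KO sham, and 11.23 and 11.16 in WT sham. All 4 MI arrays lay below all 4 sham arrays. Psme4 fell by 0.59 in KO (SE 0.13, adjusted p = 0.0105) and by 0.49 in WT (SE 0.13, adjusted p = 0.0190). The KO call ended without a KO MI array (adjusted p = 0.0747 or 0.0530), and the WT call after cyclic loess (0.0565) or without WT sham replicate 1 (0.122), WT sham replicate 2 (0.0806) or WT MI replicate 2 (0.104).

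Psme1 and Psme2 encode the partner chains of PA28, the activator that interferon gamma raises together with the immunoproteasome. Psme1 read 9.33 and 9.21 in KO MI, 9.31 and 9.24 in WT MI, 8.70 and 9.12 in KO sham, and 9.29 and 9.26 in WT sham, so only the KO sham arrays lay lower. Its differences were 0.36 in KO (adjusted p = 0.132) and 0.0025 in WT (adjusted p = 0.993). The KO difference was 0.57 without KO sham replicate 2 and 0.15 without KO sham replicate 1. After cyclic loess the KO difference of Psme1 passed. Psme2 read 8.63 and 8.82 in KO MI, 8.81 and 8.91 in WT MI, 9.08 and 8.91 in KO sham, and 9.04 and 8.82 in WT sham, with differences of -0.27 in KO and -0.07 in WT that did not pass. The probe set shared with Psme2b gave -0.69 in KO and -0.77 in WT.

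Psme3, the nuclear PA28 gamma, read 9.98 and 10.01 in KO MI, 9.85 and 9.84 in WT MI, 10 and 10.08 in KO sham, and 10.20 and 10.08 in WT sham, and did not pass (-0.05 in KO and -0.29 in WT, adjusted p = 0.830 and 0.0928). Psmf1, the inhibitor PI31, read 7.67 and 7.67 in KO MI, 7.64 and 7.70 in WT MI, 7.71 and 8.11 in KO sham, and 7.97 and 8.01 in WT sham. Its MI arrays lay below the sham arrays, at -0.25 in KO (adjusted p = 0.297) and -0.32 in WT (adjusted p = 0.134). Without KO sham replicate 1, Psmf1 passed in both genotypes, at -0.45 in KO (adjusted p = 0.0436) and -0.32 in WT (adjusted p = 0.0451), and in WT it also passed without KO sham replicate 2.

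The chaperones Psmg1 to Psmg4, which assemble the alpha ring, gave no limma call in either genotype, with medians of 0.33 in KO and -0.05 in WT. At an unadjusted p under 0.05 there were Psmg3 and Psmg4 in KO and Psmg2 and Psmg3 in WT. Psmg4 read 6.90 and 6.59 in KO MI, 6.47 and 6.27 in WT MI, 6.42 and 6.34 in KO sham, and 6.24 and 6.34 in WT sham. Psmg2 read 7.76 and 7.76 in KO MI, 7.46 and 7.33 in WT MI, 7.54 and 7.94 in KO sham, and 7.73 and 7.80 in WT sham. For both genes the KO MI arrays lay above the WT MI arrays. Psmg3 read 4.95 and 5.14 in KO MI, 4.93 and 5.03 in WT MI, 4.83 and 4.55 in KO sham, and 4.55 and 4.75 in WT sham, with differences of 0.36 in KO and 0.33 in WT. Psmg2 in WT lay at -0.37 (adjusted p = 0.0931) and passed with array weights (adjusted p = 0.0470) or without either KO sham array (0.0313). Psmg1 in KO lay at 0.31 (adjusted p = 0.199), at 0.53 without KO sham replicate 2 and at 0.10 without KO sham replicate 1.

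Of the genes that match by symbol alone, Psme3ip1, which encodes a partner of PA28 gamma, read 7.79 and 7.89 in KO MI, 7.85 and 7.73 in WT MI, 7.54 and 7.59 in KO sham, and 7.65 and 7.61 in WT sham. Psmc3ip, which acts in meiotic recombination, read 5.14 and 5.15 in KO MI, 5.15 and 5.32 in WT MI, 5.30 and 5.48 in KO sham, and 5.21 and 5.09 in WT sham. Neither passed, and the differences were 0.27 and -0.25 in KO and 0.16 and 0.08 in WT.

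Further probe sets of the same genes gave the same direction, but they read the same RNA and are not independent repeats. Psma3 had 3 probe sets, and Psma5, Psmb3, Psmc1 and Psmd2 had 2 each, and in each case all read higher after MI in both genotypes. The second probe set of Psma5 gave 0.82 in KO and 0.63 in WT, and that of Psmb3 0.46 and 0.28. Where in the genome these probe sets lie was not checked. Psma5, Psmb5, Psmb6 and Psmb7 have pseudogenes in RefSeq (6 in all among symbols of this form), and whether their transcripts reached these probe sets was not tested.

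Each genotype was compared with its own sham hearts, so the responses share no array. Across the 50 members the KO and WT differences correlated at r = 0.883, where all 19938 genes gave 0.875, and genes are not independent replicates. The KO difference was above the WT difference for 41 of 50 members (51.1% of all genes), with a median gap of 0.15 (0.01 over all genes). No member passed the test of the difference of the MI responses, where 0.00% of all genes passed, and the smallest adjusted p was 0.586, for Psmb10. At an unadjusted p under 0.05 there were 3 members (Psma7, Psmb10 and Psmg1), 6% of them, against 8.21% of all genes. With KO sham replicate 1 left out the KO difference was above the WT difference for 26 of 50, with a median gap of 0.02. After cyclic loess it was above for 32 of 50, with a median gap of 0.04.

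**Figure D4:**
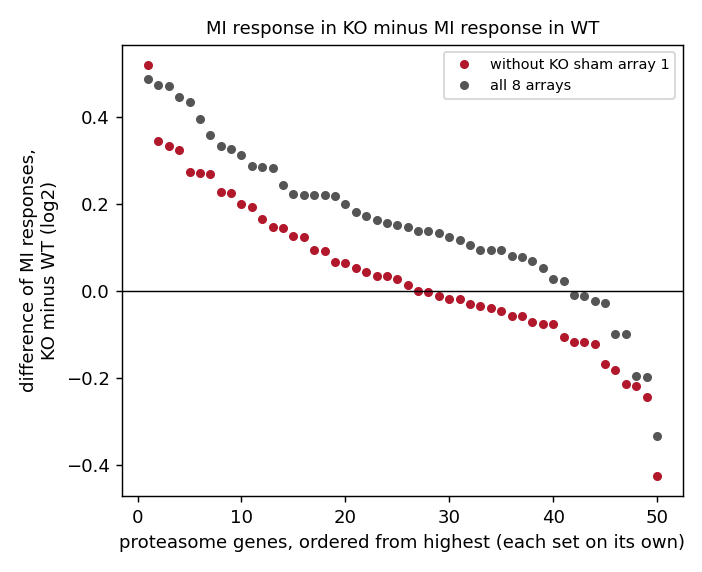
Difference of the MI responses (KO minus WT, log2) for the 50 genes, each set ordered on its own from highest to lowest, without KO sham array 1 and with all 8 arrays. With all arrays 41 genes lie above 0, and without KO sham array 1 there are 26.

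Between infarcted KO and infarcted WT hearts no member passed the adjusted threshold in limma. The count was 0 of 50, where 0.0301% of all genes were higher in KO, 0.0401% lower and 0.0702% changed in either direction. The KO MI arrays lay above the WT MI arrays without overlap for 17 members (24.2% of all genes) and below them for 5 (20.2%). In all, 5 members reached an unadjusted p under 0.05 (10% of them, against 11.7% of all genes). These were Psmb10, Psmd10, Psmg2 and Psmg4, which lay higher in KO MI, and Psme4, which lay lower. The difference for Psmb10 was 0.49 (SE 0.13, 95% interval 0.21 to 0.77, unadjusted p = 0.00314, adjusted p = 0.201, range over alternatives 0.123 to 0.643). That for Psmd10 was 0.57 (SE 0.15, unadjusted p = 0.00454, adjusted p = 0.225, range over alternatives 0.123 to 0.701). The KO value was above the WT value for 34 of 50 members (50.3% of all genes), with a median of 0.06, and after cyclic loess for 19 of 50, with a median of -0.03. Over all genes cyclic loess gave 6 higher and 14 lower calls (30% higher), against 6 higher and 8 lower (42.9% higher) on the deposited values, so the higher calls were as many. For Psmb9 and Psmb8 the intervals of the difference ran from -0.26 to 0.28 and from -0.26 to 0.54.

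Sham hearts of the genotypes gave 0 calls among the 50 members, where 0.00502% of all genes were higher in KO, 0.0251% lower and 0.0301% changed in either direction. The KO sham arrays lay above the WT sham arrays without overlap for 1 member (16.6% of all genes) and below them for 14 (16.1%). The KO value was below the WT value for most members and above it for 12 of 50 (49.1% of all genes), with a median of -0.08. Leaving out KO sham replicate 1 put it above for 29 of 50, with a median of 0.03. At an unadjusted p under 0.05 there were 3 members (6%, against 5.1% of all genes): Psmb5 at -0.30, Psmc3 at -0.37 and Psme1 at -0.37. Their adjusted p was 0.935, 0.911 and 0.937.

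**Figure D5:**
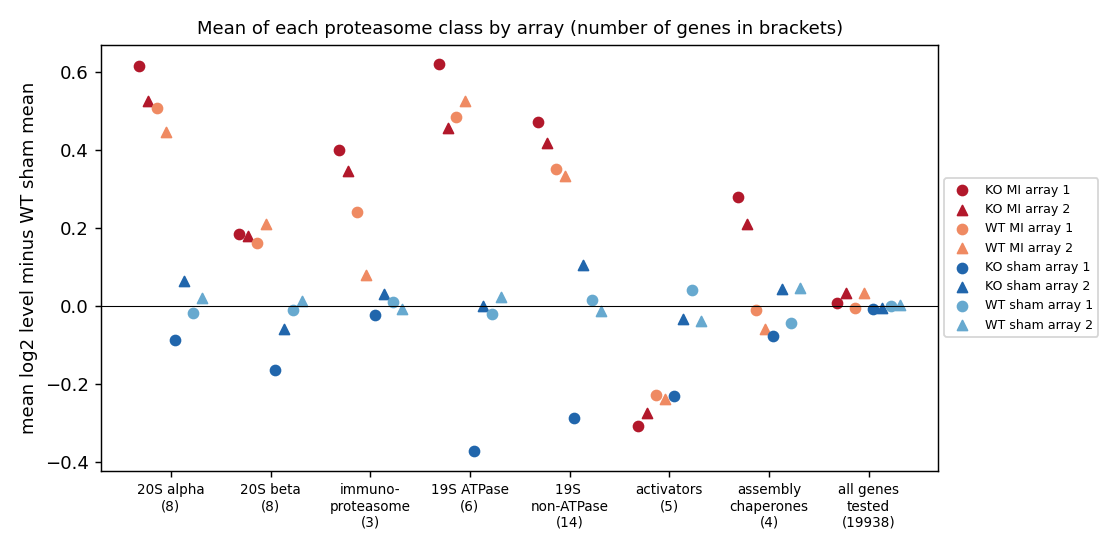
Mean log2 level of each class in each array, minus its mean in the 2 WT sham arrays, with circles for replicate 1 and triangles for replicate 2 and all 19938 genes at the right. The MI arrays lie above the sham arrays for the alpha, beta, immunoproteasome, ATPase and non-ATPase classes. KO sham array 1 reaches -0.37 for the ATPases, where KO sham array 2 lies at the level of WT sham.

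Of 20 measured genes that work with the proteasome, 3 rose and 1 fell in KO, where 10.5% and 10.3% of all genes did, and 4 rose and 3 fell in WT, where 12.3% and 15.8% did. These counts lie near those shares and are no result about the list. Nfe2l2, the oxidative stress regulator, read 10.59 and 10.34 in KO MI, 10.87 and 10.80 in WT MI, 9.96 and 9.91 in KO sham, and 9.94 and 9.79 in WT sham, and rose by 0.53 in KO (adjusted p = 0.0195) and 0.97 in WT (adjusted p = 0.000536). Rad23b, which shuttles ubiquitinated proteins to the proteasome, rose by 0.65 in KO and 0.59 in WT. Ufd1, a cofactor of the segregase that extracts such proteins, rose by 0.59 and 0.43. Ecpas, a scaffold that binds the proteasome, fell by 0.69 in WT (adjusted p = 0.00419), and in KO it lay at -0.39 (adjusted p = 0.0713). Nfe2l1 was singled out after its values were seen. It read 10.73 and 10.78 in KO MI, 10.60 and 10.58 in WT MI, 11.10 and 11.18 in KO sham, and 11.03 and 10.996 in WT sham, and fell by 0.38 in KO (adjusted p = 0.0409) and 0.42 in WT (adjusted p = 0.0221).

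Of 5 measured genes of ubiquitin activation and transfer, Ube2r2 fell, by 0.40 in KO and 0.41 in WT. The other 4, among them Ube2g1, Uba6 and Ube2d3, did not pass. Of all genes 10.3% fell in KO and 15.8% in WT. Of 9 genes of class I antigen presentation, 3 rose in KO (10.5% of all genes; Calr by 0.73, Pdia3 by 0.66 and Tap1 by 0.66, adjusted p = 0.0129, 0.0208 and 0.0462). In WT Erap1, which trims peptides, fell by 0.67 (adjusted p = 0.0149), and the other 8 did not pass. That count lies near the 15.8% of all genes that fell in WT. Tap1, which shares its start region with Psmb9, read 7.10 and 6.64 in KO MI, 6.81 and 6.42 in WT MI, 6.34 and 6.08 in KO sham, and 6.36 and 6.01 in WT sham.

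Of 12 genes of interferon gamma signalling and its targets, 4 rose and 1 fell in KO (10.5% and 10.3% of all genes), and 5 rose and 2 fell in WT (12.3% and 15.8% of all genes). The falls lie near the share of all genes. The chemokine gene Cxcl10 rose by 2.18 in KO and 2.55 in WT, while Cxcl9 fell by 1.58 and 1.22. Irf8, a transcription factor of myeloid cells, rose by 0.72 in KO and 0.76 in WT, and Socs1, an inhibitor of the pathway, by 0.72 and 0.61. The interferon gamma gene, Ifng, singled out after its values were seen, read between 3.58 and 4.09 in the 8 arrays, near their low end. Whether these genes and Psmb8 share a regulator was not tested.

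Start regions were given for 42 of the 50 members. The antioxidant response element was found in 6 (14.3%), against 14% of all 27025 genes with a region: Psmb5, Psmb6, Psmc6, Psmd9, Psmd12 and Psme4. It was in 0 of the 12 members that rose in both genotypes, 4 of the 8 that rose in 1 genotype, and 2 of the 22 that rose in neither. Those 4 were Psmb5, Psmb6, Psmc6 and Psmd12, which rose in KO by 0.40, 0.52, 0.51 and 0.58. With KO sham replicate 1 left out these differences were 0.34, 0.46, 0.40 and 0.38. All 4 calls ended at a 1.5-fold minimum, so this split depends on the settings. Whether the element bears on these rises was not tested. Its looser core TGANNNNGC, which every match of the element also meets, was in 25 of 42 (59.5%, against 45.0%). By rise, the core was in 6 of the 12, 7 of the 8 and 12 of the 22. The interferon-stimulated response element was in 5 (11.9%, against 3.99%): Psmb3, Psmd4, Psmd9, Psme1 and Psmg4. The gamma-activated site was in 3 (7.14%, against 9.55%): Psmb8, Psmd2 and Psmg1. The ETS site CCGGAAGT, looked for after the data were seen, was in 9 (21.4%, against 4.31%). By rise, the ETS site was in 2 of the 12, 4 of the 8 and 3 of the 22. A split of this kind was thus not particular to the antioxidant response element. A match is a description of the letters, and no match says only that these letters are not in this window.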

How the data were processed

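Total RNA of mouse hearts was hybridised to 8 arrays, 2 in each of 4 groups. The authors deposited log2 expression values made with Affymetrix Expression Console and RMA, per the submitters' processing notes. Their versions were not given in the sources used here. RMA quantile normalization gives the arrays a like distribution, so a change shared by most genes would not show. Precision is limited by how few arrays there are.

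Of 35556 probe sets, 21789 name 1 gene, 1621 several and 12146 were unnamed here; 21698 of the first matched RefSeq by gene ID. Each of 19938 genes was read from its highest probe set. Group means were fitted over all 8 arrays with limma 3.58.1 in R 4.3.3 (4 residual degrees of freedom) and adjusted by Benjamini-Hochberg over all genes, with a threshold of 0.05. Per-gene errors are SEs of that fit. An exact two-sided permutation test with 2 against 2 cannot go below p = 0.333. The fit was tested on simulated data. Figures used matplotlib 3.10.9 under Python 3.11.15, and promoter windows came from RefSeq (GRCm38.p6).

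The members and gene lists were chosen with earlier results of these data known. Any member could be named; per-array values are given for the catalytic and immunoproteasome subunits, the activators, and the 3 genes of each other class with the smallest p, with up to 4 genes of each context list by the same order; Psmd10, Nfe2l1 and Ifng were added after their values were seen. The labels give groups the same replicate numbers, but the deviations of same-numbered arrays correlated at only -0.187 to 0.156, so the numbers were not taken as pairs. Alternatives covered the prior, array weights, low genes, probe sets, normalization, samples fitted, replicate block, fold minimum and single arrays.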

Additional observations from a re-analysis of the deposited data

Results flagged for a closer look

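For 2 of the 50 members the MI arrays lay above the sham arrays in KO and below them in WT, without overlap in either, as they did in opposite directions for 2.85% of all genes. Psmd9 differed by 0.11 in KO and -0.21 in WT, a difference of the MI responses of 0.33 (SE 0.17), and Psmg1 by 0.31 in KO and -0.17 in WT, a difference of 0.49 (SE 0.22). In the limma test of the difference neither passed (adjusted p = 0.660 for Psmd9 and 0.609 for Psmg1). Without KO sham replicate 1 the difference was 0.34 for Psmd9 and 0.27 for Psmg1.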

How the results depend on the processing

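Of the alternatives run, none reversed the direction of a called value. In KO 22 members were called after MI, against 14 with the 2 compared groups alone, and between 10 (without KO MI replicate 1) and 30 (without KO sham replicate 2) with 1 array left out. In WT 17 were called, against 28 after cyclic loess (28 rose) and 7 with a 1.5-fold minimum, and between 7 (without either WT sham array) and 23 (without either KO sham array) with 1 array left out. The replicate block gave 21 calls in KO and 14 in WT. Cyclic loess gave 29 calls in KO, of which 28 rose, as many rises as in WT. The other comparisons gave 0 member calls throughout. Over all genes in KO, 2098 rose and 2044 fell, against 1271 and 1034 without KO MI replicate 1 and 1276 and 970 without KO MI replicate 2. In WT, 2457 rose and 3152 fell, against 1449 and 2008 without WT sham replicate 1 and 1508 and 1954 without WT sham replicate 2. Between infarcted groups 6 genes were higher and 8 lower in KO, against 0 and 2 with these groups alone and 40 and 23 with an intensity trend. Between sham groups 1 was higher and 5 lower in KO, against 20 and 14 without KO sham replicate 2. The difference of responses gave 0 calls, 2 higher and 2 lower with an intensity trend, and 3 higher without WT sham replicate 1. The antioxidant response element was in 6 member windows and its looser core in 25. The cause of these shifts was not tested.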
